A study of Mus musculus with 18 samples.

Results

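Hemicholinium-3 (HC3), which blocks the entry of choline into the cell, was compared with RSM-932a (RSM), which blocks choline kinase, in bone marrow-derived macrophages (BMDM) that were then polarized with IL-4 (M[IL-4]). The comparison rests on 6 of the 18 RNA-seq libraries, 3 per inhibitor, chosen by their labels alone. BMDM of 3 female C57BL/6J mice aged 12 weeks were grown with L-929 culture supernatant, held for 24 h in 250 µM HC3 or 5 µM RSM, and given 20 ng/mL IL-4 over another 24 h. Further libraries used here are the vehicle M[IL-4] (Veh, 0.1% DMSO, the same IL-4) and the unpolarized M[0] with HC3, RSM or vehicle and no IL-4, again 3 each. The inhibitors act at successive steps and their concentrations differ (250 against 5 µM), so a difference between them belongs to these agents at these concentrations. All libraries were made by poly-T selection from total RNA.

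Choline is carried into macrophages by transporters such as SLC44A1, phosphorylated by choline kinase (Chka and Chkb), activated by Pcyt1a and joined to diacylglycerol by Chpt1 or Cept1 to give phosphatidylcholine, the main phospholipid of cell membranes. IL-4 binds a receptor that contains IL4RA and activates STAT6, which turns on the genes of alternative activation, among them Arg1 (arginase-1), Mrc1 (the mannose receptor CD206), Chil3 (Ym1) and Retnla (RELMα). Mitochondria hold their own small chromosome, which encodes 13 subunits of the respiratory chain, 2 ribosomal RNAs and 22 tRNAs. The other proteins of the organelle are made from nuclear genes.

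The 6 libraries held 17624254 to 19522255 gene counts, a range of 1.11-fold, and 3 counts in a library corresponded to 0.153 to 0.170 CPM (counts scaled to a common library total), the unit of all levels here. All 13 macrophage markers used as a check were present, with summed levels of 8738 to 9772 CPM with HC3 and 12410 to 14810 CPM with RSM, and 4 of them (Cd14, Lyz2, Itgam and C1qa) were called higher with RSM, by the criteria given next. Of the markers that define other cells, 3 of 4 for T cells (Cd3d, Cd3e, Cd3g), 4 of 8 for neutrophils (S100a9, Mpo, Elane, Ltf), 2 of 5 for B cells (Pax5 among them), 3 of 5 for red cell precursors (Hba-a1 and Hbb-bs among them) and 2 of 5 for mast cells and basophils (Fcer1a, Prss34) had no count in these libraries. The T cell markers summed to 0.792 to 1.16 CPM with HC3 and 0.538 to 0.967 CPM with RSM, all from Lck. The neutrophil markers summed to 0.493 to 0.566 CPM with HC3 and 0.305 to 1.28 CPM with RSM. In the same order, the sums were 0.0547 to 0.498 and 0.161 to 0.372 CPM for B cells, 0.221 to 0.274 and 0 to 0.0532 CPM for red cell precursors, and 0.383 to 0.940 and 0.106 to 0.662 CPM for mast cells and basophils. None of these markers was called. In longer lists of such genes, 2 of 6 tested mast cell and basophil genes (Kit and Gata2) and 1 of 4 B cell genes (Ighm, log2 2.11) were called toward HC3, and 1 of 6 neutrophil genes (Mmp8, log2 -1.32) and 1 of 3 T cell genes (Cd2, log2 -2.99, edgeR FDR 0.00483, and 0.0536 and 0.069 without replicate 1 or 3) toward RSM. Over all genes tested, 1.21% were called toward HC3 and 1.59% toward RSM. The neutrophil list summed to 60.1 to 69.1 CPM with HC3 and 101.7 to 117.8 CPM with RSM. Stromal markers were present at a summed 615 to 1136 CPM with HC3 and 572 to 1088 CPM with RSM, with Lum at 0. The most abundant, the collagen chain Col1a2, was at 483, 275 and 521 CPM with HC3 and 499.7, 256 and 454 CPM with RSM (log2 0.08, 95% interval -0.56 to 0.72). Of the 6 stromal markers tested 1 was called, the proteoglycan decorin Dcn, higher with HC3 at 6.51, 4.87 and 5.04 CPM against 1.94, 1.51 and 2.61 CPM (log2 1.44, edgeR FDR 0.00103). The part of these other cells in the results was not tested. In bulk RNA, fewer cells of a type and less RNA per cell cannot be told apart.

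Genes were tested where 2 or more of the 18 libraries held 10 or more counts, and 419 of these 14979 genes (2.80%) separated the inhibitors. The criteria were a Benjamini-Hochberg false discovery rate (FDR) below 0.05 in edgeR's quasi-likelihood test and a log2 difference of 1 or more either way. A gene is termed called when it met both criteria, and positive log2 fold changes mean a higher level with HC3. With HC3, 181 genes (1.21% of those tested) were higher. With RSM, 238 genes (1.59%) were higher. The mitochondrial chromosome held 2 of the 181 and 24 of the 238. With its genes left out of the fit, 183 genes were called toward HC3 and 204 toward RSM. The rest of the 238 still included nuclear copies of mitochondrial mRNAs, such as Gm28439 (log2 -5.19) and Gm28661 (log2 -1.84), whose counts are uncertain. The FDR alone was met by 1947 genes (13.0%), 744 toward HC3 (4.97%) and 1203 toward RSM (8.03%), and the median log2 fold change of all genes was 0.003. The 3 HC3 libraries did not overlap the 3 RSM libraries for 178 of the 181 and 233 of the 238 called genes, against 28.5% of all genes tested. Most called genes named below were picked on condition of no overlap. For them a remark that the libraries did not overlap describes the levels and adds no support. The number of calls rested in part on replicate 3: without that replicate in any group, 217 genes were called, 78 toward HC3 and 139 toward RSM.

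**Figure D1:**
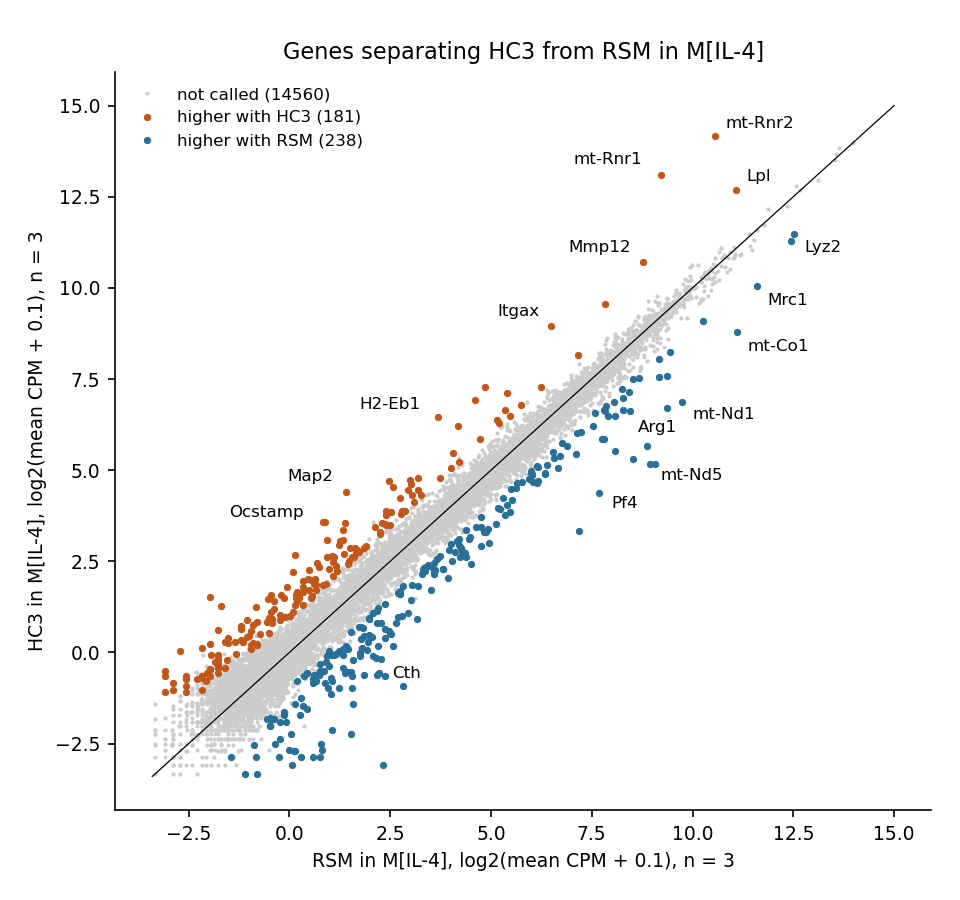
Mean level of each of 14979 genes in M[IL-4] with RSM (x axis) and with HC3 (y axis), as log2(CPM + 0.1), n = 3 libraries each, with the line of equal levels. The 181 genes called higher with HC3 (orange) lie above the line and the 238 called higher with RSM (blue) below it. The mitochondrial rRNAs mt-Rnr1 and mt-Rnr2 lie far above and the mitochondrial mRNAs, Arg1 and Pf4 far below.

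The RNAs of the mitochondrial chromosome separated the inhibitors widely, and in both directions. The 2 ribosomal RNAs were higher with HC3, whereas all 12 tested mRNAs and 12 of 13 tested tRNAs were higher with RSM. After poly-T selection these counts describe the captured RNA only, and total rRNA and tRNA were not measured. The tRNA list was low, at a summed 2.32 to 4.24 CPM with HC3 and 27.1 to 38.1 CPM with RSM. The large ribosomal RNA mt-Rnr2 stood at 16770, 22130 and 16360 CPM in the 3 HC3 libraries and at 1646, 1465 and 1436 CPM in the 3 RSM libraries. Every HC3 library thus lay far above every RSM library, by 12.1-fold on the means (log2 3.60 ± 0.17 SE, edgeR FDR 8.81e-11). The small ribosomal RNA mt-Rnr1 was at 7550, 11140 and 7719 CPM with HC3 and at 697, 555 and 547 CPM with RSM (log2 3.88 ± 0.21 SE, edgeR FDR 2.65e-10). Vehicle libraries were lower than both, at 363 to 541 CPM for mt-Rnr2 and 94.7 to 147 CPM for mt-Rnr1.

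Complex I subunits showed the widest differences among the mRNAs. The subunit mt-Nd5 was at 30.3, 34.7 and 43.1 CPM with HC3 and at 443, 598 and 435 CPM with RSM, a 13.7-fold higher mean with RSM (log2 -3.77 ± 0.16 SE, edgeR FDR 5.03e-11). mt-Nd2 differed alike, with 32.9, 28.4 and 46.2 CPM against 456, 675 and 485 CPM (log2 -3.91). The groups were far apart for both genes, and the vehicle libraries were above both, at 2000 to 2681 CPM for mt-Nd5 and 1174 to 1549 CPM for mt-Nd2. The cytochrome b mRNA mt-Cytb (log2 -2.67) and the cytochrome c oxidase subunit mt-Co1, at 416, 465 and 447 CPM against 2029, 2668 and 1926 CPM (log2 -2.32, edgeR FDR 5.63e-10), showed smaller ratios. Over the 12 mRNAs the median log2 fold change was -3.05, with a range from -4.34 to -1.49. The mRNAs mt-Atp6, mt-Co2, mt-Co3, mt-Nd3 and mt-Nd4l share at least 99% of their length with nuclear copies at 98% identity or more, as mt-Nd4 does for 63.6% and mt-Co1 for 31.3%, so their counts are uncertain. The tRNA mt-Tl1 had 1 count over the HC3 libraries and 279 over the RSM libraries.

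As a share of all counts on the mitochondrial chromosome, ribosomal RNA made up 97.04%, 97.64% and 96.67% in the HC3 libraries, 32.9%, 23.8% and 29.6% in the RSM libraries and 2.53%, 2.89% and 3.10% in the vehicle libraries. The 3 groups did not overlap. Mitochondrial mRNA made up 0.0739%, 0.0778% and 0.0828% of the whole library with HC3, 0.479%, 0.628% and 0.465% with RSM, and 1.73%, 2.13% and 1.79% with vehicle. Both inhibitors were therefore on the same side of vehicle for both RNA classes, with HC3 farther from it. Against vehicle, mt-Rnr2 differed by log2 5.31 with HC3 and 1.71 with RSM, and mt-Nd5 by -5.96 and -2.19, comparisons that share the vehicle libraries.

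**Figure D2:**
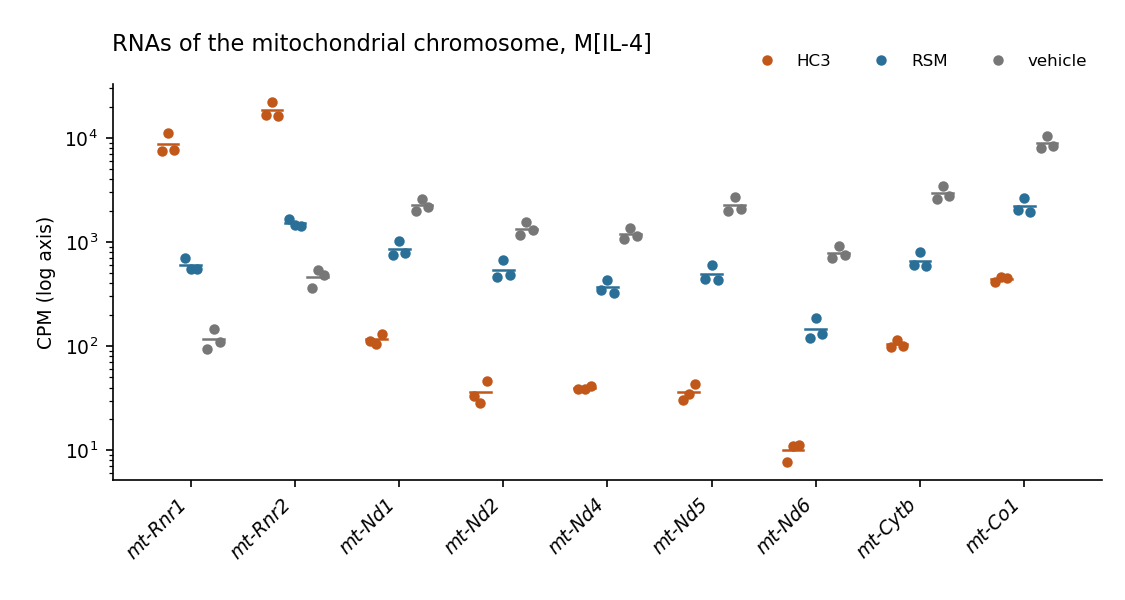
Levels of the RNAs of the mitochondrial chromosome in M[IL-4], in CPM on a log axis, with 1 point per library (3 per group) and a bar at the mean, for HC3 (orange), RSM (blue) and vehicle (grey). For both rRNAs the order was HC3, RSM, vehicle from high to low. For the mRNAs it was the reverse.

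Nuclear genes for the same organelle showed no such separation. None of 79 nuclear genes of the respiratory chain was called (median log2 0.04), and the 95% interval of all 79 lay within a log2 difference of 1. The same held for the 77 mitochondrial ribosomal protein genes (none called, 77 intervals within 1) and for the 28 genes of mitochondrial proteostasis, fusion and mitophagy (none called, 28 within 1). Of 33 genes for mitochondrial transcription and RNA handling none was called and 30 intervals lay within 1. DESeq2 also made no call in these 4 lists. At an unadjusted edgeR p below 0.05, where 24.7% of all genes stood, they held 5 of 79, 5 of 77, 8 of 28 and 7 of 33 genes in turn.

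Of 28 genes of glycolysis and lactate export, 13 met the FDR alone toward RSM and 3 toward HC3 (8.03% and 4.97% of all genes did), with a median log2 fold change of -0.25. Calls numbered 2, both toward RSM (1.59% of all genes were). These were Slc16a3, the lactate exporter MCT4, at 45.1, 34.0 and 47.5 CPM with HC3 and 105, 106 and 104 CPM with RSM (log2 -1.32 ± 0.12 SE, edgeR FDR 3.83e-07), and the aldolase Aldoc (log2 -1.05), whose call was lost without either HC3 replicate 1 (log2 -0.99) or RSM replicate 2 (log2 -0.77). The libraries did not overlap for Slc16a3. Lactate dehydrogenase Ldha differed by less than the fold criterion, at 850, 815 and 839 CPM against 1173, 1253 and 1268 CPM (log2 -0.56, edgeR FDR 2.75e-06). Among 17 hypoxia-inducible genes 9 met the FDR alone toward RSM and 1 toward HC3 (median log2 -0.45), and 3 were called toward RSM and none toward HC3, including Hilpda, an inhibitor of lipolysis on lipid droplets (9.396, 11.6 and 10.4 against 26.9, 32.5 and 31.9 CPM, log2 -1.54).

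The genes of alternative activation did not move as a block between the inhibitors. Of 34 listed genes 30 were tested, 5 were called higher with HC3 and 5 higher with RSM (2.80% of all genes were called), and the median log2 fold change was -0.02. Arginase-1 (Arg1), which turns arginine into ornithine, was at 39.9, 51.8 and 59.1 CPM with HC3 and at 380, 456 and 557 CPM with RSM. The groups were well apart, by 9.24-fold on the means (log2 -3.21 ± 0.16 SE, edgeR FDR 1.67e-10), with vehicle between them at 193, 150 and 201 CPM. Arg1 was called lower than vehicle with HC3 (log2 -1.85) and higher than vehicle with RSM (log2 1.36). The C-type lectins Mgl2 and Mrc1 were likewise higher with RSM. Mgl2 was at 84.5, 111 and 102 CPM against 344, 331 and 365 CPM (log2 -1.81, edgeR FDR 8.79e-07) and Mrc1 at 968, 1089 and 1115 CPM against 2992, 2922 and 3354 CPM (log2 -1.55, edgeR FDR 4.10e-08), with no overlap. The chitinase-like protein Chil3 was at 399, 744 and 494 CPM against 878, 1614 and 1163 CPM (log2 -1.16, edgeR FDR 0.00242). The Chil3 difference fell short of the fold criterion without HC3 replicate 1 (log2 -0.98) or RSM replicate 2 (log2 -0.90), and the edgeR FDR was 0.144 without replicate 3 throughout. E-cadherin (Cdh1) was called at log2 -1.01 with an edgeR FDR of 0.0419 and lost the call without any 1 of HC3 replicates 1 and 3 and the 3 RSM replicates (edgeR FDR 0.0858 to 0.138).

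Other alternative activation genes were higher with HC3. The integrin αX (Itgax, CD11c) was at 476, 555 and 450 CPM with HC3 and at 87.0, 99.7 and 84.0 CPM with RSM, a 5.47-fold higher mean (log2 2.45 ± 0.13 SE, edgeR FDR 1.98e-10). The macrophage elastase Mmp12 was at 1546, 2005 and 1475 CPM against 411, 500 and 399 CPM (log2 1.94, edgeR FDR 4.23e-08). Neither gene overlapped between inhibitors, and vehicle was above both groups, at 1021 to 1273 CPM for Itgax and 2109 to 2926 CPM for Mmp12. The eosinophil-type ribonuclease Rnase2a was at 15.96, 22.02 and 17.96 CPM against 4.58, 8.94 and 6.33 CPM (log2 1.497, edgeR FDR 0.000915, and 0.0537 without replicate 3). The CCR4 ligands Ccl22 (log2 2.30) and Ccl17 (log2 3.24) were called on low counts, below 3 CPM in all 6 libraries, and Ccl22 lost the call without replicate 3 (edgeR FDR 0.142) while Ccl17 lost it without HC3 replicate 2 or 3 or RSM replicate 1 or 2 (edgeR FDR 0.0679 to 0.121). The ribonuclease Ear2 was not called (log2 1.38, edgeR FDR 0.0674) but was with the replicate number as a block (edgeR FDR 0.00795).

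Several hallmark IL-4 genes were not called between the inhibitors. Retnla, which encodes RELMα, was at 32.2, 42.2 and 33.5 CPM with HC3 and at 20.0, 25.9 and 32.3 CPM with RSM, so that the groups met at their edges (log2 0.47, 95% interval -0.06 to 0.99, edgeR FDR 0.264). The vehicle libraries stood at 797, 1519 and 1505 CPM, and Retnla differed from vehicle by log2 -5.15 with HC3 and -5.61 with RSM. Levels of Pdcd1lg2, which encodes PD-L2, overlapped throughout, at 16.8, 22.5 and 17.1 CPM against 17.01, 22.1 and 18.1 CPM (log2 -0.02, 95% interval -0.41 to 0.36). Likewise, Igf1 differed by log2 0.01 (95% interval -0.17 to 0.19).

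**Figure D3:**
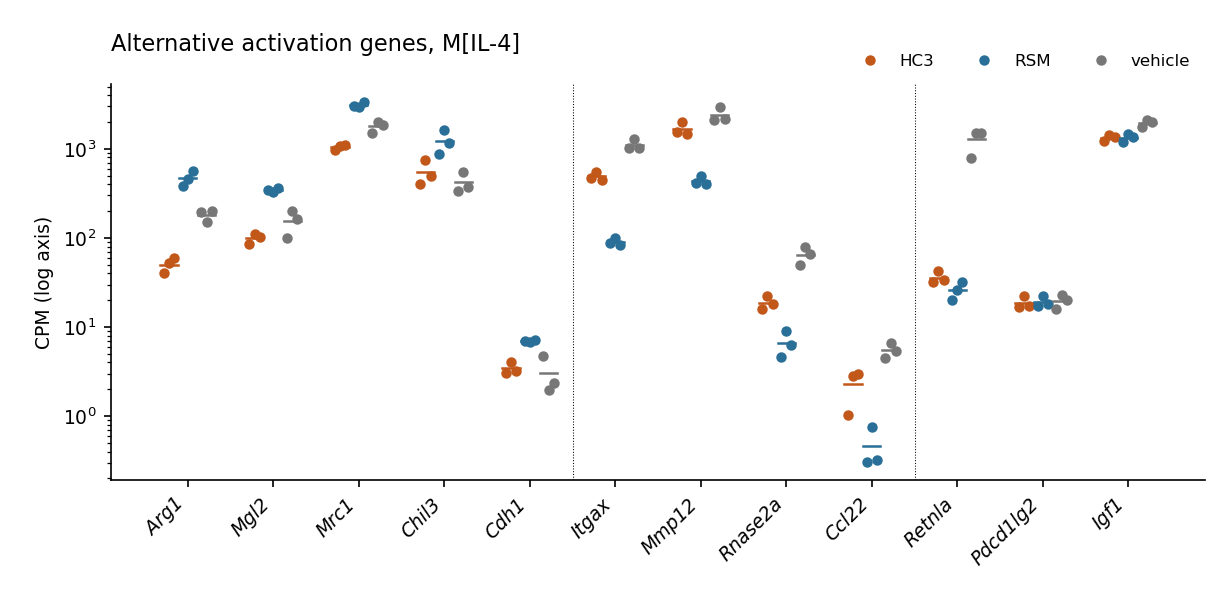
Levels of alternative activation genes in M[IL-4], in CPM on a log axis, with 1 point per library (3 per group) and a bar at the mean. The 5 genes on the left were called higher with RSM, those in the middle higher with HC3, and Retnla, Pdcd1lg2 and Igf1 on the right were not called. Retnla was 20.0 to 42.2 CPM with either inhibitor and 797 to 1519 CPM with vehicle.

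No gene of the IL-4 receptor and STAT6 pathway met both criteria. Of its 21 genes, 9 met the FDR alone toward RSM and 1 toward HC3, against 8.03% and 4.97% of all genes. The median log2 fold change was -0.15, and the intervals of 19 lay within a log2 difference of 1. At an unadjusted edgeR p below 0.05 there were 12, and DESeq2 made no call either. The receptor chain Il4ra was at 95.4, 98.1 and 100.3 CPM with HC3 and at 152, 138 and 148 CPM with RSM, without overlap (log2 -0.58 ± 0.07 SE, edgeR FDR 6.99e-06). Stat6 differed by log2 -0.24 (edgeR FDR 0.00261). The feedback inhibitors Socs1 (log2 -0.82, edgeR FDR 0.0155) and Socs3 (log2 -0.92, edgeR FDR 0.0144) leaned the same way, and the libraries overlapped for Socs3. In the targeted pathway, none of 13 tested genes of choline transport and phosphatidylcholine synthesis was called by edgeR or DESeq2, 4 stood at an unadjusted edgeR p below 0.05, and 10 of the 13 intervals lay within 1. Choline kinase Chka differed by log2 -0.12 (95% interval -0.31 to 0.08) and the transporter Slc44a1 by 0.21 (95% interval 0.0038 to 0.411). Chpt1 alone met the FDR (log2 -0.37, edgeR FDR 0.0194). The second choline kinase gene, Chkb, was at 0.509, 0.277 and 0.602 CPM against 0.204, 0.215 and 0.106 CPM (log2 1.37, 95% interval 0.04 to 2.69, edgeR FDR 0.186) and shares 58.7% of its transcript with other genes. Pcyt1b, a second form of the activating enzyme, was at 0.0566, 0.553 and 0.548 CPM against 0.815, 0.915 and 0.639 CPM (log2 -1.01, 95% interval -2.10 to 0.07, edgeR FDR 0.243). The libraries did not overlap for either gene, and both intervals reach beyond a log2 difference of 1.

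Of 11 tested genes of MHC class II presentation, which serves CD4+ T cells, 5 were called toward HC3 (1.21% of all genes were) and none toward RSM. The transcription of class II genes needs the coactivator CIITA and a promoter module that includes the Y box, bound by NF-Y. The promoters of a class II α and a class II β chain are shown because both carried that motif and both genes were called. The bases are the 250 before the transcription start, 5′ to 3′ on the gene's strand (RefSeq, GRCm38.p6), for H2-Aa on the minus strand at chr17:34287824-34288073 and H2-Eb1 on the plus strand at chr17:34305617-34305866, with CTGATTGG in capitals.
H2-Aa: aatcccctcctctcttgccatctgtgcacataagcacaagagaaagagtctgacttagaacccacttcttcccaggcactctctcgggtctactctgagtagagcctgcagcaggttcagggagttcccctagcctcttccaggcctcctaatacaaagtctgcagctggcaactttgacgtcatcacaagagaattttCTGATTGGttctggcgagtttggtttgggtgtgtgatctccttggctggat
H2-Eb1: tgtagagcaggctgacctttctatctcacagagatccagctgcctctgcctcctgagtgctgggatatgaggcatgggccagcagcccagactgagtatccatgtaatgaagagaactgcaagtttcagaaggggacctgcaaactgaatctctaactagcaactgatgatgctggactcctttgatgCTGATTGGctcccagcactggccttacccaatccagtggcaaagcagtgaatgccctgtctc

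The Y box CTGATTGG began 51 bases before the start in H2-Aa and 62 bases before it in H2-Eb1. Searched on both strands over 300 bases (250 before to 50 after the start), it was present in 4.1% of 32851 RefSeq promoters. Of the 5 called class II genes 2 had a promoter in the table and both held the motif, and of 6 genes not called, all with a promoter, none held it. A match is a description of the letters alone.

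H2-Eb1 was at 79.2, 109 and 74.9 CPM with HC3 and at 10.3, 16.6 and 11.7 CPM with RSM, 6.82-fold higher with HC3 (log2 2.77 ± 0.25 SE, edgeR FDR 3.66e-07). H2-Aa was at 129, 205 and 128 CPM against 21.1, 37.1 and 27.7 CPM (log2 2.43, edgeR FDR 4.91e-06). The groups did not overlap for either gene, and in both groups replicate 2 was the highest. A further 3 of the 11 tested members were called, all toward HC3, namely H2-Ab1, the partner chain of H2-Aa (log2 2.32), the invariant chain Cd74 (693, 889 and 667 against 198, 259 and 227 CPM, log2 1.72) and Ciita itself (6.85, 11.3 and 6.84 against 1.07, 3.01 and 1.38 CPM, log2 2.20). The list had a median log2 fold change of 1.06, and its 5 calls were made in each alternative analysis. The protease Lgmn met the FDR alone toward RSM (577, 629 and 542 against 865, 987 and 944 CPM, log2 -0.68, edgeR FDR 1.15e-06). The remaining 5 did not meet the FDR, among them H2-DMa, which edits the bound peptides (log2 0.51, edgeR FDR 0.0886). Vehicle was above both inhibitors for all 5, for example at 143, 235 and 179 CPM for H2-Eb1. For MHC class I, none of 19 genes was called by edgeR or DESeq2, 6 had an unadjusted edgeR p below 0.05, and all 19 intervals lay within 1.

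Of 12 osteoclast and giant cell genes 3 were called, all toward HC3 (1.21% of all genes were). At the FDR alone 5 were toward HC3 and 2 toward RSM, the latter being the transcription factor Nfatc1 (log2 -0.30) and the RANK gene Tnfrsf11a (log2 -0.39), and the median log2 fold change was 0.40. The fusion protein Ocstamp was at 10.9, 12.7 and 12.3 CPM with HC3 and at 1.94, 1.56 and 1.70 CPM with RSM (log2 2.78 ± 0.19 SE, edgeR FDR 3.26e-08). Its relative Dcstamp was at 8.32, 16.1 and 10.8 CPM against 2.70, 2.80 and 2.02 CPM (log2 2.22, edgeR FDR 0.00013), and the gelatinase Mmp9 at log2 1.52. The HC3 libraries were above the RSM libraries for these genes, and vehicle was higher than either, with Ocstamp at 46.1 to 66.0 CPM. Of 15 dendritic cell and maturation genes 4 were called toward HC3, none was toward RSM, and the other 11 did not meet the FDR. Besides Ccl17, Ccl22 and Ciita these included the stem cell factor receptor Kit, also a mast cell marker (5.26, 5.15 and 3.18 against 1.58, 0.592 and 0.745 CPM, log2 2.20). The summed dendritic cell markers used as a check were at 1.58 to 1.99 CPM with HC3 and 0.745 to 1.51 CPM with RSM, with Siglech at 0, and their part in these results was not tested.

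Other large differences toward HC3 were in genes of varied function. The microtubule-associated protein Map2 was at 19.7, 27.0 and 16.6 CPM against 2.65, 2.15 and 2.82 CPM (log2 3.05, edgeR FDR 1.51e-08). The groups did not overlap, and vehicle was above both, reaching 80.1 CPM. The sialic acid-binding lectin Siglecf (log2 2.64), the MAM domain protein Mamdc2 (log2 2.80) and the chemokine receptor Ccr2 (log2 1.97) followed. The thyroid hormone deiodinase Dio2 differed in its order, at 21.2, 34.8 and 21.5 CPM with HC3, 4.79, 7.05 and 4.42 CPM with RSM and 8.61, 10.8 and 5.38 CPM with vehicle (log2 2.26 between inhibitors). The tetraspanin Tspan13 had one of the lowest FDRs, at 85.0, 81.6 and 81.8 CPM against 37.1, 34.3 and 35.4 CPM (log2 1.22, edgeR FDR 3.44e-10), with vehicle below both.

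Of 31 genes of lipid uptake, storage and oxidation 4 were called toward HC3 and 2 toward RSM (1.21% and 1.59% of all genes), with a median log2 fold change of -0.01. Lipoprotein lipase Lpl, which frees fatty acids from lipoproteins, was at 6564, 6576 and 6679 CPM with HC3 and at 2194, 2283 and 1978 CPM with RSM (log2 1.62 ± 0.13 SE, edgeR FDR 8.80e-08). Monoacylglycerol lipase Mgll was at 6.62, 9.52 and 8.76 CPM against 1.89, 2.32 and 2.61 CPM (log2 1.87, edgeR FDR 7.46e-06). Neither overlapped, and relative to vehicle Lpl was lower with both inhibitors (log2 -0.55, not called, with HC3 and -2.17, called, with RSM). Pla2g7, which hydrolyses platelet-activating factor, went the other way (36.9, 55.5 and 36.9 against 115, 161 and 136 CPM, log2 -1.67). None of 25 sterol synthesis genes, 21 fatty acid synthesis genes and 14 cholesterol efflux genes was called by edgeR or DESeq2, and 4, 8 and 7 of them had an unadjusted edgeR p below 0.05.

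Toward RSM, the widest gaps among nuclear genes included chemokines. Platelet factor 4 (Pf4, CXCL4) was at 20.4, 19.9 and 21.6 CPM with HC3 and at 225, 151 and 237 CPM with RSM, with vehicle at 25.1, 24.0 and 32.5 CPM (log2 -3.31 ± 0.17 SE, edgeR FDR 2.34e-10). The HC3 libraries thus lay near vehicle and the RSM libraries well above. The CCR1 ligands Ccl6 and Ccl9 had another order, with vehicle nearer to RSM than to HC3. Ccl9 was at 181, 219 and 179 CPM with HC3, 595, 695 and 687 CPM with RSM and 659, 996 and 872 CPM with vehicle (log2 -1.77 between inhibitors, edgeR FDR 1.34e-08), and Ccl6 differed by log2 -1.90. The monocyte attractant Ccl7 was at 95.2, 86.4 and 115 CPM against 255, 171 and 255 CPM (log2 -1.20, edgeR FDR 8.12e-05). The neutrophil attractants Cxcl2 (10.6, 11.2 and 7.501 against 33.4, 28.8 and 26.3 CPM, log2 -1.60) and Cxcl3 (log2 -2.98) were higher with RSM as well. Of 23 chemokine ligands 6 were called toward RSM and 3 toward HC3 (1.59% and 1.21% of all genes), the latter being Ccl17, Ccl22 and the fractalkine gene Cx3cl1 (log2 1.62). The receptor Ccr1 was called toward RSM (23.9, 29.1 and 22.4 against 74.9, 60.2 and 74.8 CPM, log2 -1.48).

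Of 27 macrophage identity genes 5 were called toward RSM and 1, Ccr2, toward HC3 (1.59% and 1.21% of all genes). At the FDR alone 13 were toward RSM and 2 toward HC3, against 8.03% and 4.97% of all genes, and the median log2 fold change was -0.24. The transcription factor Maf was at 92.5, 89.7 and 87.7 CPM with HC3, 274, 252 and 284 CPM with RSM and 225, 176 and 202 CPM with vehicle (log2 -1.59 ± 0.08 SE, edgeR FDR 1.98e-10). The LPS co-receptor Cd14 was at 66.1, 63.6 and 64.5 CPM against 149, 133 and 135 CPM (log2 -1.11, edgeR FDR 7.10e-08). Each group was narrow and the groups did not overlap. Lysozyme (Lyz2) was at 2481, 3484 and 2644 CPM against 5026, 6808 and 5875 CPM (log2 -1.04), and lost the call without HC3 replicate 1 (log2 -0.95), HC3 replicate 3 (log2 -0.98) or RSM replicate 2 (log2 -0.92), or without replicate 3 throughout (log2 -0.97). The complement subunit C1qa was at 40.6, 38.0 and 42.9 CPM against 83.7, 91.9 and 107 CPM, both far under vehicle at 407, 379 and 543 CPM. Integrin αM (Itgam, log2 -1.20) shares 73.8% of its transcript with a second annotated gene, so its count is uncertain. The receptors that define the lineage differed little, with F4/80 (Adgre1) at log2 -0.22, the CSF1 receptor Csf1r at -0.15 and Cd68 at -0.24.

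Among 35 lectins and scavenger receptors 6 were called toward RSM and 2 toward HC3 (1.59% and 1.21% of all genes). The scavenger receptor Stab1 was at 199, 160 and 209 CPM with HC3 and at 655, 490 and 580 CPM with RSM (log2 -1.60, edgeR FDR 2.36e-07), close to vehicle at 463 to 664 CPM. The membrane protein Ms4a4a was at 34.1, 56.7 and 48.0 CPM against 218, 304 and 285 CPM (log2 -2.54, edgeR FDR 1.84e-08), and with Arg1 it was one of 4 genes called in opposite directions against vehicle. The VEGF receptor Kdr (log2 -1.59), the transferrin receptor Tfrc (log2 -1.10) and the lysosomal protease Ctsl were also higher with RSM. Ctsl, at 2364, 2691 and 2480 CPM against 5187, 5993 and 5638 CPM (log2 -1.16, edgeR FDR 1.20e-08), overlaps antisense genes over 26.8% of its exons. The flagellin receptor Tlr5 was at 0.283, 0.221 and 0.329 CPM against 2.60, 2.64 and 3.35 CPM (log2 -3.33).

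Calls among interferon-stimulated genes were all toward RSM, and their number rested largely on 1 library. Of 53 tested genes 26 met the FDR alone, all toward RSM (8.03% of all genes did), 11 were called toward RSM and none toward HC3, and the median log2 fold change was -0.78. Many such genes carry the interferon-stimulated response element (ISRE), here searched on both strands as GAAA, any 2 bases, GAAA. The promoters of Oas1g and Rsad2, 2 called genes with the motif, are shown as examples, the latter chosen after its values were seen. They are the 250 bases before the start in RefSeq (GRCm38.p6), for Oas1g at chr5:120887614-120887863 and for Rsad2 at chr12:26456453-26456702, both on the minus strand, with the motif in capitals (overlapping matches in Oas1g, the reverse orientation in Rsad2).
Oas1g: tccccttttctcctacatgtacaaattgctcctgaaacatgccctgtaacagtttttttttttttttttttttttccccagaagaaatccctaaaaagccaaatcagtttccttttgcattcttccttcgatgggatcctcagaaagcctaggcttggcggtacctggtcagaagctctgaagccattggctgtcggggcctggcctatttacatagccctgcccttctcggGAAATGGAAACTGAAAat
Rsad2: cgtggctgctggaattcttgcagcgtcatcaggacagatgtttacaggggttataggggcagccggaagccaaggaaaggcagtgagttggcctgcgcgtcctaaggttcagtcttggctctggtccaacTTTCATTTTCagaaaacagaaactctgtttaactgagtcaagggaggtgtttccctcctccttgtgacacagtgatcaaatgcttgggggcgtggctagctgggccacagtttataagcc

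The first ISRE match began 18 bases before the start in Oas1g and 120 bases before it in Rsad2, and the motif was present in 3.44% of all promoters. It was held by 3 of the 6 called genes that had a promoter entry, and by 23 of 33 such genes that were not called. Irf7, a transcription factor of the interferon response, was at 8.26, 6.47 and 7.61 CPM with HC3 and at 13.1, 21.9 and 46.3 CPM with RSM (log2 -1.86 ± 0.34 SE, edgeR FDR 0.000789). The antiviral enzyme Oas2 was at 14.3, 15.5 and 15.6 CPM against 25.01, 35.6 and 51.7 CPM (log2 -1.31, edgeR FDR 5.93e-05). RSM replicate 3 was the highest library for both genes, although the groups did not overlap.

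For Oas1g the values were 9.74, 10.1 and 10.4 CPM with HC3 and 14.3, 19.1 and 28.5 CPM with RSM (log2 -1.03), and for Oasl2 24.1, 30.9 and 21.6 CPM and 35.0, 49.6 and 114 CPM (log2 -1.37). Rsad2 (viperin) overlapped between the inhibitors, at 5.26, 8.74 and 3.997 CPM against 5.55, 9.74 and 40.7 CPM (log2 -1.64, edgeR FDR 0.0464). Summed over the list, the HC3 libraries were at 1183, 1469 and 1237 CPM, the RSM libraries at 1369, 1878 and 2752 CPM and the vehicle libraries at 1423, 1777 and 1657 CPM. Without RSM replicate 3 the calls in the list fell from 11 to 2, with Oas1g at log2 -0.73 and Oasl2 at log2 -0.73. Without replicate 3 in any group 1 call was left and the edgeR FDR of Irf7 was 0.0581. Calls numbered 5 without HC3 replicate 1, 6 without HC3 replicate 3 and 24 without RSM replicate 1. In M[0] none of these genes was called between the inhibitors and none was called for a difference between M[IL-4] and M[0], by edgeR or DESeq2. At an unadjusted edgeR p below 0.05 there were 10 of the 53 in M[0], where 26.1% of all genes stood. For the difference between polarizations there were 11 of the 53, against 6.34% of all genes.

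Targets of the integrated stress response, which ATF4 induces when translation is restrained, were called in 5 of 46 cases, all toward RSM (1.59% of all genes were). At the FDR alone 8 were toward HC3 and 7 toward RSM, the median log2 fold change was 0.07, and the summed level of the list was 8050 to 8356 CPM with HC3 and 7353 to 7841 CPM with RSM. The cysteine-forming enzyme Cth was at 0.623, 0.830 and 0.876 CPM with HC3 and at 5.20, 4.20 and 4.90 CPM with RSM, with vehicle at 0.504 to 0.538 CPM (log2 -2.61 ± 0.24 SE, edgeR FDR 4.96e-07). The mitochondrial folate enzyme Aldh1l2 was at 7.19, 5.04 and 6.02 CPM against 22.6, 17.1 and 22.7 CPM (log2 -1.78, edgeR FDR 1.51e-05). HC3 was close to vehicle for Cth, and the groups were apart for both. Stc2 (log2 -2.21), the cationic amino acid transporter Slc7a3 (log2 -2.14) and the mTORC1 inhibitor Ddit4 (log2 -1.11) completed the calls, and Ddit4 lost its call without HC3 replicate 2 (log2 -0.96) or RSM replicate 1 (log2 -0.93). Atf4 itself (log2 0.09, 95% interval -0.02 to 0.21) and its target Trib3 (log2 -0.06) were not called. Of 24 NRF2 and glutathione genes 12 met the FDR alone toward HC3 and 1 toward RSM, and of 49 DNA replication genes 12 did toward HC3 and none toward RSM (4.97% and 8.03% of all genes). Neither list held a call by edgeR or DESeq2, and all 24 intervals of the first lay within 1. The lists of p53 targets (29 genes), endoplasmic reticulum chaperones (31) and cytosolic ribosomal proteins (81) held no call by either tool, with 10, 16 and 5 genes at an unadjusted edgeR p below 0.05.

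**Figure D4:**
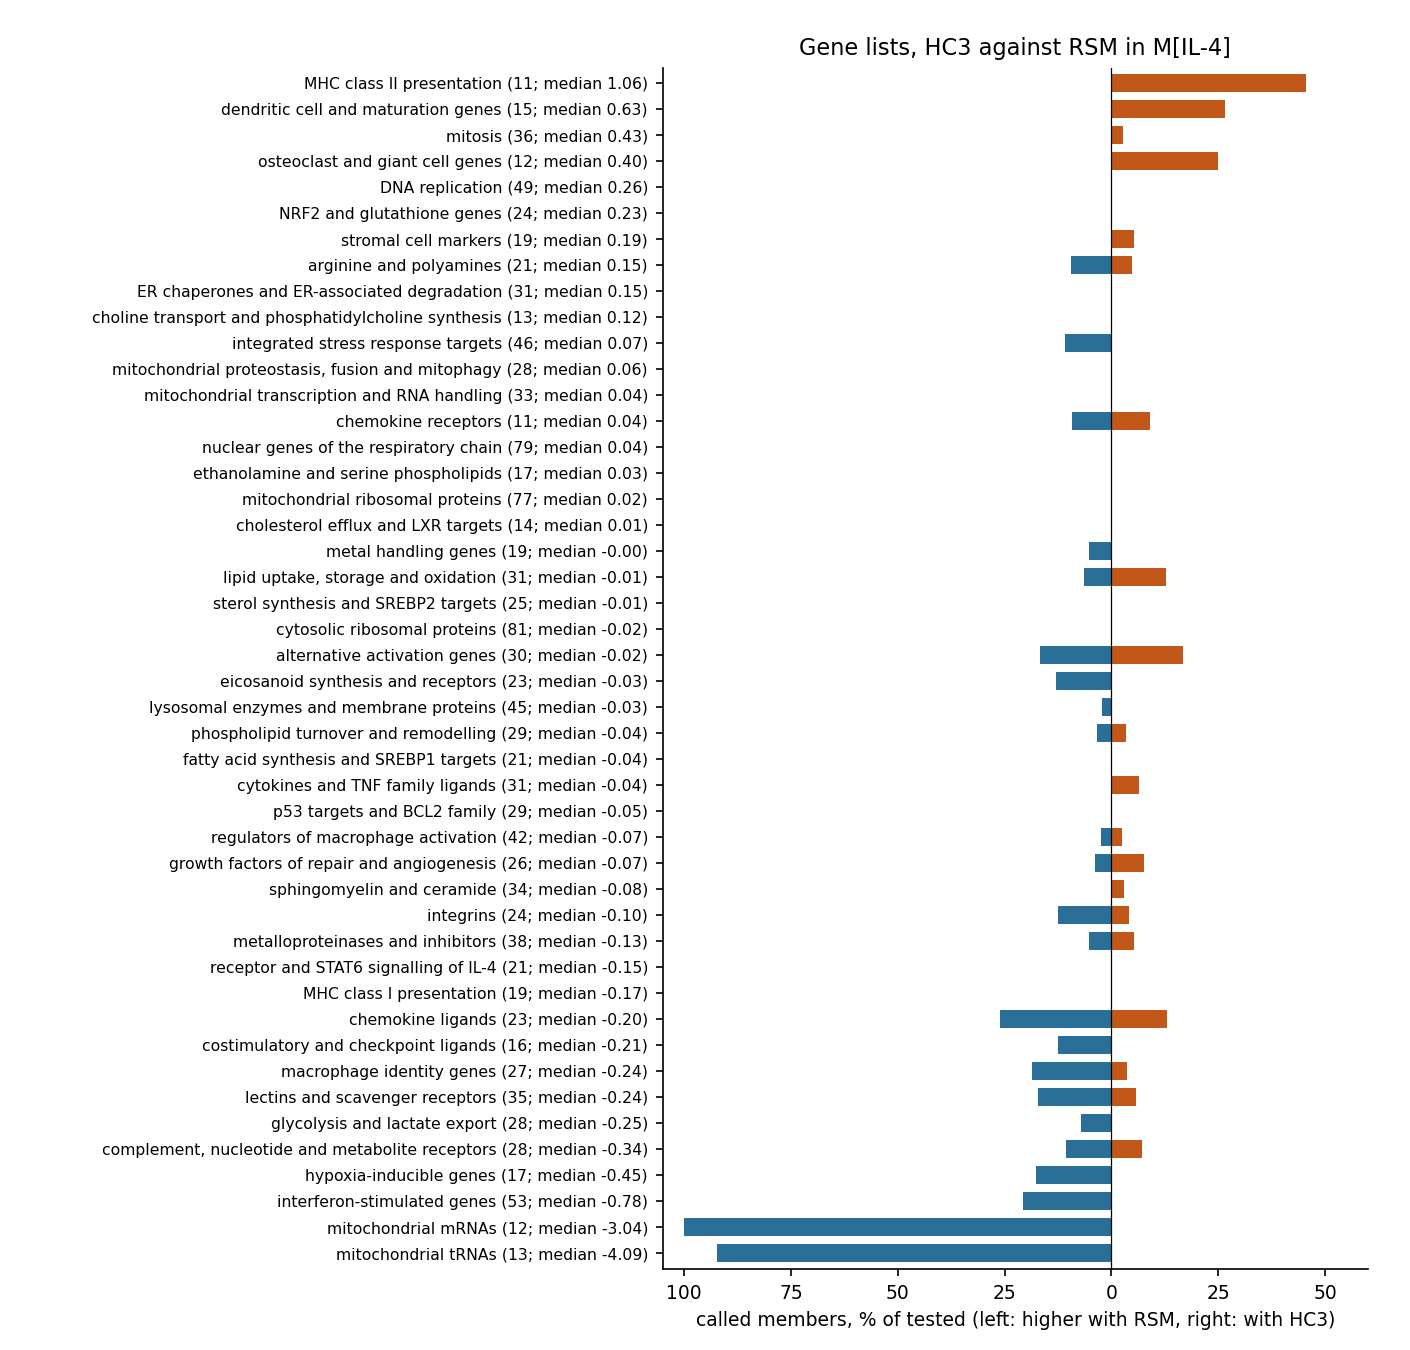
Share of the tested members of each gene list with at least 10 tested members that was called between the inhibitors in M[IL-4], in percent, to the right where higher with HC3 and to the left where higher with RSM. Lists are ordered by median log2 fold change, with the number tested and that median in brackets. The mitochondrial RNAs fill the lower end and MHC class II the upper end, and the nuclear respiratory chain list is empty.

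The separating genes were read against the IL-4 response itself, measured between vehicle M[IL-4] and vehicle M[0], which share no library with the comparison of the inhibitors. Both comparisons used the same estimate of spread for each gene, so a gene easier to call in one was easier to call in the other. The part of this in the shares that follow was not tested. In vehicle, 997 genes were called (6.66%), 424 induced (2.83%) and 573 repressed (3.83%) by IL-4. Of the induced genes 17.7% separated the inhibitors, 44 toward HC3 and 31 toward RSM. Of the repressed genes 13.8% did, 24 toward HC3 and 55 toward RSM, and of the other 13982 genes 1.9% did. Seen from the inhibitors, 24.3% of the genes higher with HC3 were induced by IL-4 and 13.3% repressed, and 13.0% of those higher with RSM were induced and 23.1% repressed. Induced genes higher with HC3 included Itgax, Ocstamp, Map2 and Cd74, and induced genes higher with RSM included Arg1, Mgl2, Mrc1, Chil3 and Ms4a4a. Repressed genes higher with RSM included Maf, Pf4, Stab1, Cd14 and Kdr.

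The vehicle mean of M[IL-4] lay above both inhibitors for 93 of the 181 genes higher with HC3, between them for 57 and below both for 31. For the 238 genes higher with RSM it lay above both for 65, between for 108 and below both for 65. Tested against vehicle, with the same vehicle libraries in each comparison, 47 of the 181 were called higher and 43 lower with HC3, and 8 higher and 107 lower with RSM. Over all genes 10.3% were called with HC3 (4.72% higher, 5.53% lower) and 11.0% with RSM (5.05% higher, 6.00% lower). Of the 238, HC3 gave 17 higher and 99 lower and RSM 96 higher and 27 lower.

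The same comparison in M[0], from 6 other libraries of the same mice, called 456 genes (3.04%), 241 higher with HC3 (1.61%) and 215 higher with RSM (1.44%). Of the calls, 229 were made in both polarizations in the same direction, which is 54.7% of those in M[IL-4] and 50.2% of those in M[0]. They comprised 103 of the 181 genes higher with HC3 and 126 of the 238 higher with RSM, and 1 gene was called in opposite directions. Across the 14979 genes the log2 fold changes of the 2 polarizations had Pearson's r of 0.600 and Spearman's rho of 0.549, given as a description, since genes are not independent replicates. mt-Rnr2 differed by log2 3.53 in M[0] and 3.60 in M[IL-4], mt-Nd5 by -3.35 and -3.77, Mrc1 by -1.77 and -1.55, and Lpl by 1.68 and 1.62. In M[0], where both genes were near the level of no counts, Arg1 (edgeR FDR 0.396) and Mgl2 (edgeR FDR 0.784) were not called.

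The difference between inhibitors itself differed between M[IL-4] and M[0] for 11 genes (0.0734%), all with the lower value in M[IL-4] (28 genes, 0.187%, at the FDR alone). Itgax was at 57.0, 50.9 and 43.5 CPM with HC3 and at 2.88, 2.20 and 1.39 CPM with RSM in M[0], a log2 difference of 4.55 against 2.45 in M[IL-4] (interaction -2.10 ± 0.23 SE, edgeR FDR 0.00038). Levels of Itgax were higher in M[IL-4] with either inhibitor, and the gap on the log scale was narrower. The transcription factor Egr2 was at 13.2, 12.9 and 13.4 CPM against 3.79, 3.56 and 4.83 CPM in M[0] (log2 1.70) and at 89.6, 99.2 and 86.2 CPM against 71.8, 76.3 and 66.0 CPM in M[IL-4] (log2 0.36), an interaction of -1.33 (edgeR FDR 0.000532). The proton pump subunit Atp6v0d2 differed by log2 2.10 without IL-4 and by 0.57 with it, and the pentraxin Nptx1 by 2.06 and 0.26. These 4 were positive in both polarizations and smaller with IL-4. For 6 genes the fitted sign was positive in M[0] and negative in M[IL-4]. Among them were Arap2, an ARF GTPase-activating protein, and Ccl7, with log2 0.42 in M[0] and -0.62 (Arap2) or -1.20 (Ccl7) in M[IL-4]. The others were Bmp2 (1.15 and -0.12), Itgb3 (1.13 and -0.40), Gng4 (0.45 and -1.38) and the predicted gene Gm8989 (5.49 and -1.52). Of these 6 only Gm8989 reached the fold criterion in both polarizations. For the rest, the opposite signs rest on a fitted value under the criterion in at least 1 polarization. The remaining gene, Tbc1d4, was negative in both and farther toward RSM with IL-4 (-0.20 and -1.33). With the replicate number as a block, 32 genes were called for this difference, and 2 to 13 when single libraries or replicate numbers were left out.

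**Figure D5:**
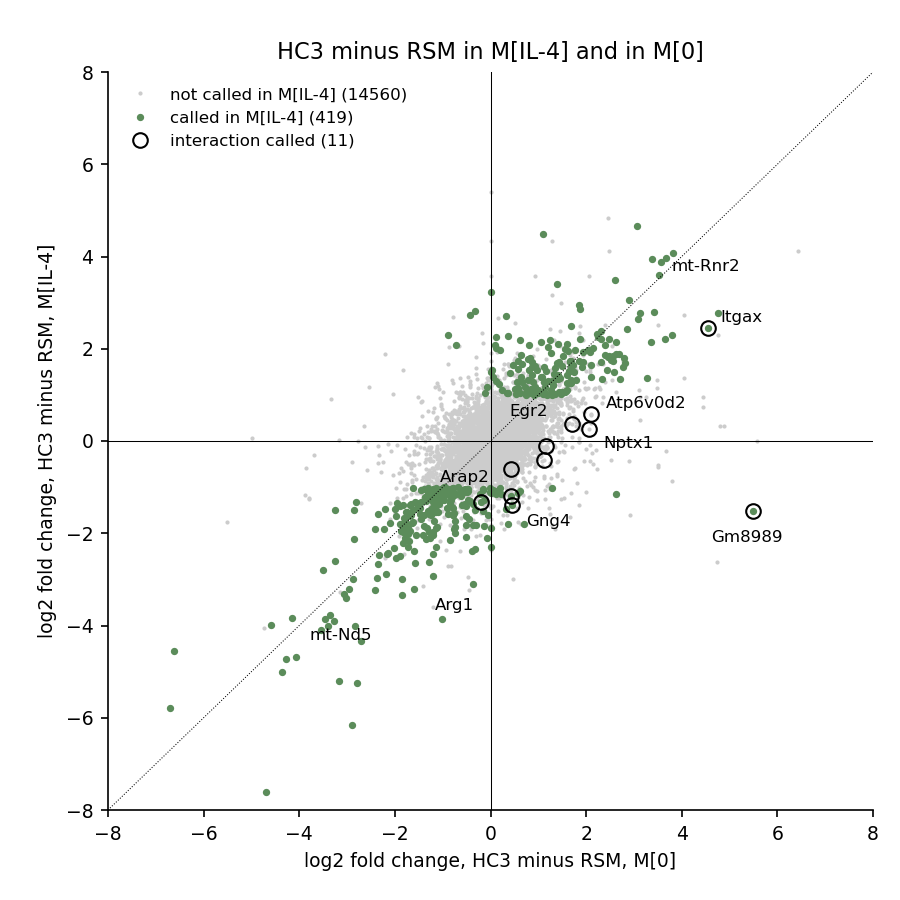
Log2 fold change of HC3 minus RSM, with M[0] on the x axis and M[IL-4] on the y axis, for 14979 genes, with the line of equal differences. Green points are the 419 genes called in M[IL-4], and rings mark the 11 genes whose difference was called as unequal between the polarizations, all of which lie below the line.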

How the data were processed

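RNA from M[0] and M[IL-4] treated with vehicle, HC3 or RSM was sequenced in 18 libraries, 3 for each of 6 groups. The authors deposited raw read counts per gene and library, and the submitters' processing notes name fastp, STAR, Picard, Subread, featureCounts and edgeR, without roles. The annotation release and strand setting are not given in the sources used here. Of 55385 rows 55144 took a symbol from the reference annotation (GRCm38), and 14979 genes were tested, those where 2 or more libraries held 10 or more counts.

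Groups were taken from the sample labels, which name individual mice but do not say which replicate number is which mouse, so p-values measure the spread between these samples. Counts of all 18 libraries were fitted with edgeR 4.0.16 (R 4.3.3): TMM factors (0.971 to 1.006 in the 6 libraries compared), 1 coefficient per group, quasi-likelihood tests, two-sided, with Benjamini-Hochberg adjustment over all genes tested. Called means an FDR below 0.05 and a log2 difference of 1 or more. CPM were computed from the counts with the TMM factors, and intervals are 95%. Replicate libraries of a group differed beyond counting error (chi-square per gene 5.79 to 15.1), so all 6 were kept. Libraries carrying the same replicate number deviated together between HC3 and RSM in all 3 pairs (r 0.110 to 0.372, against -0.321 to 0.147 in the 6 other pairs). The ranges overlap, and deviations from a group mean are not independent, so these ranges are not separate evidence. The numbers were therefore taken only as a possible pairing. The main fit was unpaired, and the replicate block was fitted as an alternative. On simulated counts for this comparison, over 14979 genes, 200 of 200 changed genes were recovered with 3 false calls. All planted changes lay well beyond the fold criterion, in genes averaging at least 50 counts. The recovery therefore says nothing about changes near the criterion or genes with fewer counts.

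The gene lists, the comparisons and the genes described were chosen with earlier results of these data known. Genes were named by rule: among called genes whose higher group averaged 50 counts or more, with no overlap of libraries and no predicted-model symbol, the 12 largest and 8 lowest-FDR per direction, up to 5 per list, those opposite to each other against vehicle, those called for the interaction and the IL-4-induced ones, plus the members of the alternative activation, STAT6, choline and mitochondrial mRNA and rRNA lists and the most abundant marker of other cell types. Rsad2, Slc7a3, C1qa, H2-DMa, Ldha, Atf4, Trib3, Adgre1, Csf1r, Cd68, Lgmn, Nfatc1, Tnfrsf11a, Bmp2, Itgb3, Gng4, Gm8989, Tbc1d4, Gm28439, Gm28661 and the genes named only as markers were chosen after their values were seen. Transcripts of 176 named genes were compared with all others by blastn 2.17.0, and 47 shared at least 100 bases at 98% identity or more with another gene. Alternatives were DESeq2 1.42.0, library size scaling, no count filter, filterByExpr, the replicate block over all groups or within each polarization, only the compared groups, the mitochondrial chromosome left out, and each library or replicate number left out. Some items are not reported here.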

Additional observations from a re-analysis of the deposited data

Results flagged for a closer look

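The HC3 minus RSM difference was called as different between M[IL-4] and M[0] for 11 genes, by the interaction term of the edgeR fit, with 950 genes (6.34%) at an unadjusted p below 0.05. Of the genes named by rule, Itgax had an interaction of -2.10 on the log2 scale, Nptx1 -1.79, Atp6v0d2 -1.53, Egr2 -1.33 and Arap2 -1.04. Itgax, Nptx1, Atp6v0d2 and Egr2 were higher with HC3 in M[0] by log2 4.55, 2.06, 2.10 and 1.70, and the difference in M[IL-4] was smaller. For Arap2 the difference was 0.42 in M[0] and -0.62 in M[IL-4]. Of all 11 genes, 4 were higher with HC3 in both polarizations by fitted value and less so with IL-4, 6 had opposite signs and 1 was lower with HC3 in both and more so with IL-4. Itgax kept its interaction call in every alternative. Arap2 lost it without replicate 1, without replicate 3, without HC3 replicate 1 (log2 -0.96) and without RSM replicate 3 (log2 -0.99), Atp6v0d2 without replicate 1 or 3, Egr2 without replicate 1 and Nptx1 without replicate 2.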

How the results depend on the processing

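With the methods changed and no library left out, 362 to 520 genes separated HC3 from RSM in M[IL-4] (419 as reported), 148 to 239 toward HC3 and 204 to 281 toward RSM. With the replicate block 489 genes were called, among them all 419. Leaving out a library or a replicate number gave 217 to 441 calls, 78 to 190 toward HC3 and 139 to 251 toward RSM, the lowest without replicate 3. In M[0] this gave 256 to 412 calls. The interaction was called for 25 genes by DESeq2, 49 with no count filter, 32 with the replicate block and 2 to 13 when libraries or numbers were left out, against 11 as reported, and the cause was not tested. Of 107 called genes named by rule, 80 were called in every alternative and 0 changed direction. Of the other 27, 24 lost the call only when libraries were left out and 3 (C5ar1, Ccl17, Cdh1) under another method. With the block, Ear2 became a called gene and calls in the interferon list rose from 11 to 15. Depth limits genes under 50 counts: 78 of the genes higher with HC3 and 70 of those higher with RSM had less in the higher group. Doses differed between inhibitors, 3 samples per group give an exact permutation p of at least 0.1, and protein was not analysed here.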

Other observations

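Of 23 genes of eicosanoid synthesis and receptors 3 were called, all toward RSM (1.59% of all genes were), and 6 met the FDR alone toward RSM and 2 toward HC3 (median log2 -0.03). The called genes included the cysteinyl leukotriene receptor Cysltr1, at 9.79, 11.8 and 10.6 CPM with HC3 and 25.2, 26.6 and 29.1 CPM with RSM (log2 -1.33, edgeR FDR 1.39e-06), and the prostaglandin E2 receptor Ptger2, at 29.8, 38.1 and 36.5 CPM against 70.0, 71.8 and 69.9 CPM (log2 -1.02), which fell short of the fold criterion without HC3 replicate 1 (log2 -0.92). The libraries did not overlap for either gene. Among 28 complement, nucleotide and metabolite receptors 3 were called toward RSM, including the microglial ADP receptor P2ry12 (0.906, 1.27 and 0.657 against 2.55, 5.17 and 3.35 CPM, log2 -1.96) and the adenosine receptor Adora2b (log2 -1.16), and 2 toward HC3 (1.59% and 1.21% of all genes).

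Of 38 metalloproteinases and inhibitors Mmp12 and Mmp9 were called toward HC3, and the collagenase Mmp8 (7.87, 10.7 and 8.10 against 20.1, 23.4 and 22.99 CPM, log2 -1.32) and Mmp27 (log2 -1.53) toward RSM. Of all genes, 1.21% were called toward HC3 and 1.59% toward RSM. Among 26 growth factors, the PDGF chain Pdgfb was at 61.8, 59.3 and 51.2 CPM with HC3 and 28.2, 28.9 and 21.98 CPM with RSM (log2 1.12, edgeR FDR 9.77e-07), without overlap, and vehicle was above both at 150 to 157 CPM. Of 24 integrins 3 were called toward RSM, including the collagen-binding Itga1 (2.32, 2.16 and 4.98 against 7.997, 14.1 and 11.6 CPM, log2 -1.83), and Itgax alone toward HC3 (1.59% and 1.21% of all genes). The T cell costimulator Cd80 was at 7.30, 6.75 and 8.65 CPM against 16.3, 19.4 and 19.4 CPM (log2 -1.28, edgeR FDR 4.76e-06). The cytokine Tnf was called toward HC3, at 12.6, 10.4 and 12.0 CPM against 6.37, 3.39 and 4.63 CPM (log2 1.28, edgeR FDR 0.00087), and had an edgeR FDR of 0.0667 without replicate 3.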
